A study of Mus musculus with 3 samples.

Results

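The cells described here are spinous keratinocytes of mouse ear epidermis that held at least 10 UMIs (unique molecular identifiers, each standing for 1 captured transcript) of Krt16 and Sprr1b together. Spinous cells are the layer that has left the basement membrane and begun to differentiate, and they were set by keratin shares. Cells needed 500 detected genes or more and a mitochondrial share of 10% of UMIs or less, and counted as spinous when Krt1 and Krt10 made up at least 0.5% of its UMIs, Krt5 and Krt14 under 0.5%, and loricrin (Lor) less than 1%. The rule found 84 cells among the 5340 that passed the filters, out of 6078 deposited barcodes. They were set against the other 2017 spinous cells, which met the same keratin rule with fewer than 10 UMIs of the pair, and against 162 granular cells, the next layer up, in which Lor reached 1%. Because Krt16, Sprr1b, Krt1, Krt10, Krt5, Krt14 and Lor chose the cells, their values are a description, and so are those of Stfa1, which was proposed as a marker with earlier results of these data known.

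All cells came from 3 single-cell libraries of 1 group, replicates 1 to 3, made from the ears of C57BL/6N mice that were 9 weeks old, with no treatment named in the labels. Epidermis was lifted with dispase, its cells were freed with trypsin and EDTA from the basal side and frozen, and the libraries count 5' ends of transcripts (10x Genomics V(D)J kit), per the labels' protocols. The labels do not state the sex or whether the replicates were separate animals, so the spread behind each p-value may be technical. The libraries held 1108, 2477 and 2493 barcodes with 15926683, 24480473 and 28176712 UMIs. Between libraries, 16 barcodes were shared, none of them in a Krt16/Sprr1b-high cell, and Scrublet, which marks likely doublets, marked 1 of the 84 cells, in replicate 2.

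Keratinocytes change their keratins as they rise through the epidermis: basal cells make Krt5 and Krt14, spinous cells Krt1 and Krt10, and granular cells load loricrin, filaggrin and small proline-rich proteins into the cornified envelope. Krt16 pairs with Krt6a and Krt6b in hair follicles, in footpad skin and around wounds, and Krt17 and the calprotectin genes S100a8 and S100a9 are induced with them in inflamed epidermis. Sprr1b encodes a small proline-rich protein that is cross-linked into the envelope. Stfa1 belongs to the stefin A genes, inhibitors of cysteine proteases that mice carry in several copies.

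The proposed name, stress-type suprabasal keratinocytes, rests on Krt16 and Sprr1b, and the other genes of that programme were found in few of the 84 cells. Krt6a was found in 2 of the 84 cells (2.38%), against 0.198% of other spinous and 2.67% of basal cells, with 17 UMIs of which 15 were in 1 cell of replicate 3. In the test described below it was called higher than in other spinous cells (4.66 ± 0.93, adjusted p = 0.00278 in edgeR) and in 13 of 16 alternative fits, but not in DESeq2 (adjusted p = 0.212) or against the deeper of the other spinous cells (adjusted p = 0.0531), nor with the pair set at 0.1% of UMIs, and it was too rare to test without replicate 3. Krt6b was found in 4 cells of replicate 3 (4.76% of the class, against 0.0496% of other spinous and 0.0418% of basal cells), with 88 UMIs, and in no Krt16/Sprr1b-high cell of replicates 1 and 2. Krt17 was found in 10 cells (11.9%), against 1.93% of other spinous, 14.8% of granular and 4.34% of basal cells. Of its 90 UMIs, 42 were in the cell of replicate 2 that Scrublet had marked. S100a8 had 0 UMIs in all 84 cells and Stfa2 had 2 UMIs. S100a9 had 8 UMIs in 6 cells (7.14%), against 1.19% of other spinous and 22.8% of granular cells. Krt6a was found in 0% and Krt6b in 1.85% of granular cells. In all, 68 of the 84 cells had no UMI of Krt6a, Krt6b, Krt17, S100a8 or S100a9. The cells are therefore called Krt16/Sprr1b-high below. Depth limits these zeros: 3 UMIs, the limit that a count of 0 allows, stand for 11, 10.2 and 2.05 CPM (counts scaled to 1000000 UMIs) in the summed Krt16/Sprr1b-high cells of replicates 1, 2 and 3.

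Krt16/Sprr1b-high cells were unevenly spread over the libraries. They numbered 10 of 360 spinous cells in replicate 1, 13 of 918 in replicate 2 and 61 of 823 in replicate 3. These are shares of 2.78% (exact 95% Clopper-Pearson interval 1.34 to 5.05), 1.42% (0.756 to 2.41) and 7.41% (5.72 to 9.42), with a mean of 3.87% ± 3.14 (SD, n = 3). The interval of replicate 3 lay above both others, and its cells made up most of the class. It overlapped that of replicate 1 at a threshold of 5 UMIs, with 8.11 to 12.3% in replicate 3 and 3.43 to 8.45% in replicate 1. It also did after thinning to 4000 UMIs, where the threshold was lowered to 4 UMIs of the pair and shallower cells were left out. The intervals there were 3.96 to 7.25% in replicate 3 and 0.812 to 4.10% in replicate 1. Of all cells that passed the filters, the shares were 1.06%, 0.588% and 2.79%. Intervals cover counting error only, and shares describe the frozen suspension rather than intact skin. In the layers around them, 11 of 162 granular cells (6.79%), 6 of 198 cells with both keratin pairs (3.03%) and 1 of 2395 basal cells (0.0418%) also reached 10 UMIs of Krt16 and Sprr1b.

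**Figure D1:**
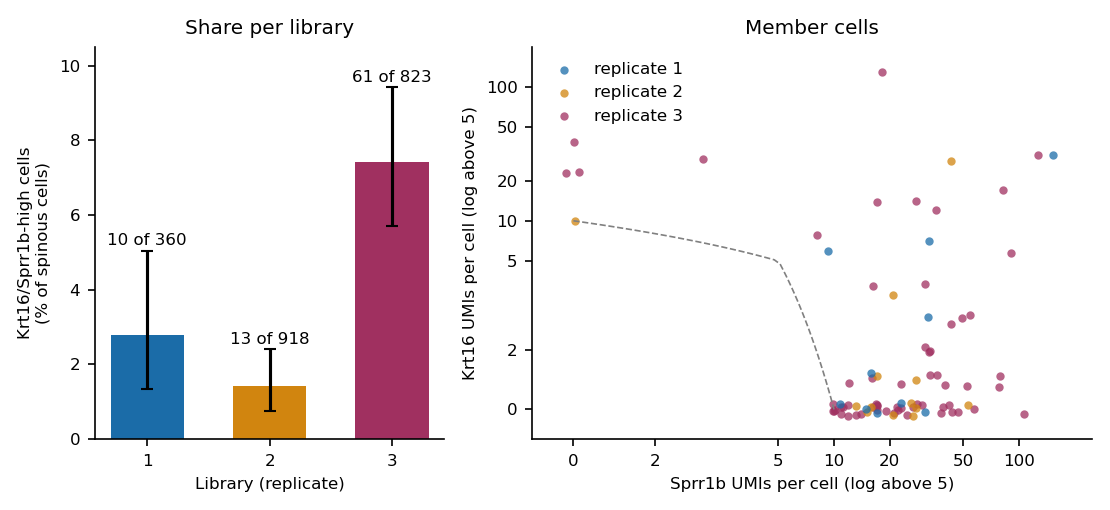
Left, bars give Krt16/Sprr1b-high cells as a percentage of spinous cells in each library, with exact 95% intervals and cell numbers; replicate 3 stands highest at 7.41%. Right, each point is 1 of the 84 cells with its Sprr1b UMIs (x) and Krt16 UMIs (y), both axes linear to 5 and logarithmic above, coloured by replicate and shifted by up to 0.25 UMIs at random so that equal values can be seen; the dashed line is a sum of 10 UMIs, and most cells lie along the bottom, at 0 or few Krt16 UMIs.

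The class was mostly a Sprr1b class. Sprr1b alone reached 10 UMIs in 77 cells and Krt16 alone in 13, and both did in 8. Sprr1b was found in 80 cells, with a median of 22.5 and a maximum of 154 UMIs. Krt16 was found in 39 cells, with a maximum of 129 UMIs, and 35 cells held both transcripts, 45 Sprr1b only and 4 Krt16 only. Across the 61 cells of replicate 3, which share 1 library, Spearman's rho between the CPM of the pair was -0.04. Krt16 was thus detected in 5 of 10, 5 of 13 and 29 of 61 cells of replicates 1, 2 and 3, a similar part of each library.

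In the summed cells, Sprr1b stood at 1349, 1061 and 1314 CPM in Krt16/Sprr1b-high cells of replicates 1 to 3, against 14.2, 9.38 and 22.7 CPM in other spinous cells (scaled by TMM, a method that equalises composition between sums). Krt16 stood at 190, 152 and 265 CPM in Krt16/Sprr1b-high cells, against 2.23, 0.809 and 1.11 CPM in other spinous cells. Both gaps follow from the rule. Krt10, the keratin that places the cells above the basal layer, was found in every cell, with 22393, 24295 and 30135 CPM in Krt16/Sprr1b-high cells, against 16994, 14441 and 17525 CPM in other spinous cells. Just inside the threshold, 11 cells with 10 to 12 UMIs of the pair had a median of 19606 UMIs and 497 CPM of Sprr1b in all. Just outside it, 19 spinous cells with 7 to 9 UMIs had a median of 20975 UMIs and 408 CPM.

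The threshold is a count and not a share, and Krt16/Sprr1b-high cells were the deeper class. Their median was 23720 UMIs per cell, against 14812 in other spinous cells and 8367 in basal cells, while the median mitochondrial share was 3.57% against 3.61% in other spinous cells. Krt16 had a UMI in 46.4% of Krt16/Sprr1b-high cells, against 0.992% of other spinous, 6.79% of granular and 2.38% of basal cells. With each cell thinned to 4000 UMIs, these 4 shares were 22.6%, 0.530%, 5.33% and 1.20%. Thinning left out 130 other spinous, 12 granular and 320 basal cells. Basal cells were set by keratin shares alone, so follicle cells were not left out of them. The comparisons below were repeated on thinned cells, which kept the class set at full depth, and against deep spinous cells. These are the 111, 124 and 146 other spinous cells of replicates 1 to 3 that held at least the 25th percentile of UMIs of the Krt16/Sprr1b-high cells of their library.

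Summed counts of 5 keratinocyte classes in 3 libraries entered 1 model in edgeR with library as a block, and a gene was called at a Benjamini-Hochberg adjusted p of 0.05. Of 9324 genes tested between Krt16/Sprr1b-high and other spinous cells, 1298 were called (13.9%), 663 higher (7.11%) and 635 lower (6.81%) in Krt16/Sprr1b-high cells. At least a 2-fold difference was reached by 195 of the higher and 335 of the lower genes, and the median over all tested genes was -0.10 on the log2 scale. The counts were much smaller against deep spinous cells, with 145 genes higher and 137 lower among 9332 tested. Without replicate 3, when 23 Krt16/Sprr1b-high cells remain, 111 were higher and 42 lower among 8420. After thinning, 183 genes were higher and 140 lower among 5213 tested. These totals are the background for the list counts given below from the same fits. DESeq2, with its own scaling, called 702 higher and 408 lower. Of the called genes tested there, 98.6% had the same sign against deep spinous cells and 99.4% without replicate 3. Those fits reuse cells of the fit that picked the genes, so shared signs were likely beforehand and are no independent support.

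Small proline-rich genes of the chromosome 3 cluster, beside Sprr1b, gave the largest rises. Sprr1a rose 38.4-fold (log2 fold 5.26 ± 0.77, SE, adjusted p = 0.000178), with 1701, 276 and 164 CPM in Krt16/Sprr1b-high cells of replicates 1 to 3, against 9.04, 11.9 and 21.0 CPM in other spinous cells. Sprr2h rose 88.5-fold (6.47 ± 1.35, adjusted p = 0.00319), with 190, 10.3 and 25.3 CPM against 0.139, 0.323 and 0.513 CPM in other spinous cells. The groups did not overlap for either gene, but both were picked for large rises in all libraries. Replicate 1 stood far above the others. Without replicate 1 the log2 folds were 3.48 for Sprr1a (adjusted p = 0.000339) and 5.10 for Sprr2h (adjusted p = 2.54e-05), and without replicate 3 they were 6.21 (adjusted p = 4.75e-05) and 8.25 (adjusted p = 0.00271). The third member that passed the filter on low counts, Sprr2d, also rose (4.82 ± 1.00, adjusted p = 0.0031) but had 0 UMIs in the 13 Krt16/Sprr1b-high cells of replicate 2. The other 10 members of this list in the files did not pass that filter or, like Sprr1b, were used by the rule. Sprr1a was found in 40 of the 84 cells, in 47.6%, against 5.70% of other spinous, 13.6% of granular and 0.668% of basal cells. Sprr2h was found in 19.0% of the 84 cells and in 15.4% of granular cells. Against granular cells, 0 of the 3 tested Sprr genes were called higher and 2 lower, with a median log2 fold of -1.96. All 3 rises were called against deep spinous cells too, and Sprr1a and Sprr2h in each of 19 alternative fits, with adjusted p up to 0.00348 for Sprr1a and 0.0273 for Sprr2h. SPRR2 genes are near-identical in places, and the labels do not say how reads shared between copies were counted.

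A single cell of replicate 1, singled out after its values were seen, carried much of this signal. Of its 26935 UMIs, 369 were Sprr1a, which is 49.6% of all Sprr1a UMIs in the 84 cells, while no other cell had more than 52. The same cell held 350 UMIs of Serpinb2, an inhibitor of plasminogen activators (58.0% of the total), 39 of the chemokine Ccl20 (81.2%), 58 of the glutathione transferase Gsta1 (52.7%), 37 of Sprr2h (42.5%) and 29 of the AP-1 factor Fosl1 (43.9%). It had the highest Sprr1b count of all cells, 154, and 31 UMIs of Krt16, but 0 of Stfa1 and of BC100530, and 81 of the other cells held more Krt10. Without it, Sprr1a stood at 248, 271 and 160 CPM of total UMIs in replicates 1 to 3, and Serpinb2 at 183, 142 and 113 CPM, against means of 14.1 and 104 CPM in other spinous cells. Clade B serpins gave 3 rises (Serpinb2, Serpinb6a and Serpinb8) and 1 fall (Serpinb3c) among 10 tested. Without replicate 3 the calls of Serpinb6a (-0.19, adjusted p = 0.843), Serpinb8 (0.97, adjusted p = 0.126) and Serpinb3c (-2.08, adjusted p = 0.136) were lost, and Serpinb6a turned direction. Serpinb2 had been called higher (2.04 ± 0.49, adjusted p = 0.00817), and so had Gsta1 (2.24 ± 0.48, adjusted p = 0.00417). Without replicate 1 neither was called, with log2 folds of 0.38 (adjusted p = 0.195) for Serpinb2 and 0.83 (adjusted p = 0.0613) for Gsta1.

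Promoter windows of the 3 Sprr genes are shown because these genes rose together with Sprr1b, the gene that chose most cells. They come from RefSeq on build GRCm38.p6, 250 bases before to 50 after the transcript start, 5' to 3' on the gene's strand. Capitals mark TGANTCA, a pattern with any base (N) at its centre, which is its own reverse complement on the other strand. It includes the AP-1 core, TGAGTCA or TGACTCA, but is wider. The match is TGAATCA in Sprr1b and TGAGTCA in Sprr1a and Sprr2h. The windows lie at chr3:92438730-92439029 (minus strand) for Sprr1b, chr3:92485832-92486131 (minus strand) for Sprr1a and chr3:92385435-92385734 (plus strand) for Sprr2h.
Sprr1b: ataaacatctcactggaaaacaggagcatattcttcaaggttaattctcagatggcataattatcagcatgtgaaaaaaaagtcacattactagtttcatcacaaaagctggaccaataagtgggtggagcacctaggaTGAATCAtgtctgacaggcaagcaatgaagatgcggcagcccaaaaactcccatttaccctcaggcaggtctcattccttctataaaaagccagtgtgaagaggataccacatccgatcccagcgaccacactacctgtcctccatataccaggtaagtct
Sprr1a: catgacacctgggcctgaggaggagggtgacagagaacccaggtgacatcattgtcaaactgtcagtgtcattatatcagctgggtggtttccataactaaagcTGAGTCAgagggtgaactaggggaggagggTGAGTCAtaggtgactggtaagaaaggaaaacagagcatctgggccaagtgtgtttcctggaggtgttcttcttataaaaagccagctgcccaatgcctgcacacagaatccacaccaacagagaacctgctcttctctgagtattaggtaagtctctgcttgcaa
Sprr2h: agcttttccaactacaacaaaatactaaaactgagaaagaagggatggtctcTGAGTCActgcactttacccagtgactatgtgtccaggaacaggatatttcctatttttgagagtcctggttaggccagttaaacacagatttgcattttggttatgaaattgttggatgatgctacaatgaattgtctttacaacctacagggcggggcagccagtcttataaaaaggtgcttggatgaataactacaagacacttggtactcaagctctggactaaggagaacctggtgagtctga
The motif starts 111 bases before the transcript start in Sprr1b, 146 and 116 bases before it in Sprr1a, and 198 bases before it in Sprr2h. It was in 8 of the 13 Sprr genes with a window, and in 2565 of all 32851 windows of the table (7.81%). Among genes with a window, it was in 60 of 517 called higher in Krt16/Sprr1b-high cells (11.6%), 30 of 499 called lower (6.01%) and 462 of all 7389 tested (6.25%). A match describes these letters only, and binding was not measured.

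Stefins, the protease inhibitors for which Stfa1 had been proposed as a marker, rose in 4 of 6 tested members and fell in none, with a median log2 fold of 1.78 beside -0.10 over all genes. Stfa3 rose 16.2-fold (4.02 ± 0.36, adjusted p = 1.59e-06), with 27.7, 51.7 and 67.5 CPM in Krt16/Sprr1b-high cells, against 1.39, 1.62 and 4.53 CPM in other spinous cells. Cstb, stefin B, was found in all 84 cells and rose 3.34-fold (1.74 ± 0.14, adjusted p = 1.01e-06), with 2021, 1822 and 1265 CPM against 539, 496 and 478 CPM in other spinous cells. The values of the classes do not overlap for either gene, a separation that was not counted over all genes. Csta1 rose as well (1.83 ± 0.37, adjusted p = 0.00237) but was not called without replicate 3 (1.32, adjusted p = 0.349) or against deep spinous cells (1.21, adjusted p = 0.101). The stefin A genes Stfa1, Stfa3 and BC100530 lie together on chromosome 16 and are close copies, so their counts may not be cleanly separated.

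BC100530, a stefin A gene of the same cluster, differed between libraries. It had 0 UMIs in the 10 Krt16/Sprr1b-high cells of replicate 1, and 179 and 474 CPM in those of replicates 2 and 3, against 5.01, 5.90 and 14.7 CPM in other spinous cells. Its rise was called by edgeR (4.62 ± 0.48, adjusted p = 6.56e-06) although replicate 1 went the other way, and not by DESeq2 (3.52, adjusted p = 0.105). Stfa1 followed it, with 0, 41.3 and 73.1 CPM in Krt16/Sprr1b-high cells and 5.56, 4.77 and 7.35 CPM in other spinous cells. Krt1 was also uneven, at 47.5, 2157 and 2485 CPM in Krt16/Sprr1b-high cells, against 571, 412 and 181 CPM in other spinous cells. Krt1 had a UMI in 2 of 10, 8 of 13 and 42 of 61 Krt16/Sprr1b-high cells. Within the 61 cells of replicate 3, rho was 0.48 between Stfa1 and BC100530 and 0.36 between Krt1 and BC100530, but 0.07 between Krt16 and BC100530.

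Other secreted defence and signalling genes moved singly rather than as groups. Of 7 tested alarmins and antimicrobials, 1 rose and 1 fell (14.3% each, beside 7.11% and 6.81% of all genes tested). The riser, the defensin Defb6, stood at 202, 193 and 318 CPM in Krt16/Sprr1b-high cells, against 21.3, 11.9 and 50.5 CPM in other spinous cells (3.11 ± 0.34, adjusted p = 1.21e-05). Hbegf, a ligand of the EGF receptor, was the 1 of 8 tested genes of that system that rose, with 146, 107 and 203 CPM against 14.6, 28.5 and 49.4 CPM (2.19 ± 0.26, adjusted p = 2.46e-05). For both genes every Krt16/Sprr1b-high value exceeded every other spinous value, and both were called in each of 19 alternative fits. Both had been picked for large rises in all libraries, so this separation is partly set by their choice. Hbegf had a UMI in 65.5% of Krt16/Sprr1b-high and 53.1% of granular cells, and Defb6 in 46.4% and 9.26%. Among 4 tested chemokines and cytokines, Cxcl16 rose (1.12 ± 0.18, adjusted p = 0.000406), with a log2 fold of 0.43 (adjusted p = 0.282) against deep spinous cells and 1.04 (adjusted p = 0.105) without replicate 3.

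The interleukin 1 family gave 4 rises among 8 tested genes: the receptor antagonists Il1rn and Il1f5, and the interleukin 36 cytokines Il1f8 and Il1f9. The classical ligands were nearly absent, with 2 UMIs of Il1a and 0 of Il1b in the 84 cells. Il1f9 stood at 27.7, 51.7 and 40.0 CPM in Krt16/Sprr1b-high cells, against 10.4, 15.2 and 15.1 CPM in other spinous cells (1.45 ± 0.25, adjusted p = 0.000661). Il1f8 had the highest log2 fold, 2.17 ± 0.49 (adjusted p = 0.00584), from 30 UMIs. Against granular cells, 1 of the 8 tested genes was higher and 7 were lower, with a median log2 fold of -3.07. After thinning, 1 of 6 was higher than in other spinous cells and 0 lower. Against deep spinous cells none of the family was called, with log2 folds of 0.41 for Il1rn, 0.10 for Il1f5, 1.14 for Il1f8 and 0.68 for Il1f9, and without replicate 3 Il1rn alone was.

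Feedback genes of the NF-kB, STAT3 and interleukin 17 pathways gave 4 rises among 15 tested and no fall. Bcl3, a nuclear partner of NF-kB, rose 12.6-fold (3.65 ± 0.46, adjusted p = 4.16e-05), with 15.8, 13.8 and 18.3 CPM in Krt16/Sprr1b-high cells, against 1.39, 0.809 and 1.37 CPM in other spinous cells. Osmr, the oncostatin M receptor, rose too (2.58 ± 0.52, adjusted p = 0.00247), from 13 UMIs. Both were called against deep spinous cells, while Nfkbiz and Zc3h12a were not. Without replicate 3 none of the 4 was called, with log2 folds of 3.80 for Bcl3 (adjusted p = 0.0922), 2.98 for Osmr (0.136), 0.30 for Nfkbiz (0.722) and 0.90 for Zc3h12a (0.242).

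Of 19 tested immediate early and AP-1 genes, 3 rose and 2 fell. The small Maf factor Maff rose 5.14-fold (2.36 ± 0.41, adjusted p = 0.000695), with 87.0, 20.7 and 23.2 CPM in Krt16/Sprr1b-high cells, against 5.15, 7.12 and 5.99 CPM in other spinous cells. Without the 1 cell of replicate 1 described above, which held 34.4% of its UMIs, Maff had 4.07 CPM of total UMIs there. Atf3 was lower (-0.72 ± 0.24, adjusted p = 0.0489), a call lost in 12 of 19 alternative fits, among them each that left out a library (log2 folds -0.50, -0.78 and -0.75). Heat shock chaperones gave 5 rises among 13 tested, led by Bag3 (1.56 ± 0.26, adjusted p = 0.000463), of which 1 was called against deep spinous cells and 0 without replicate 3. Of 9 tested genes of the migrating wound edge, the TWEAK receptor Tnfrsf12a rose (1.65 ± 0.38, adjusted p = 0.00714) and the urokinase Plau fell by 1.54 on the log2 scale (adjusted p = 0.00887); neither was called against deep spinous cells (1.37, adjusted p = 0.084, and -0.51, adjusted p = 0.61) or without replicate 3 (1.97 and -1.91).

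**Figure D2:**
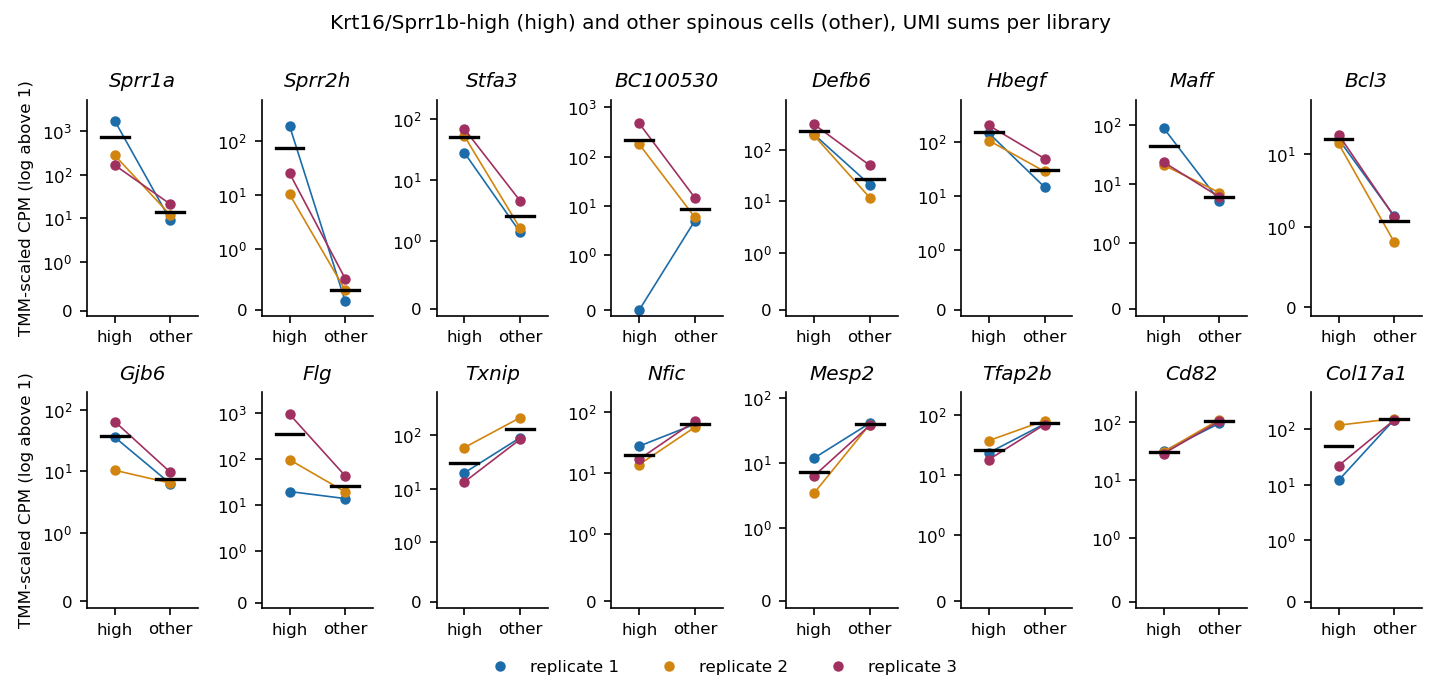
TMM-scaled CPM (y, linear to 1 and logarithmic above) of 16 genes in the summed Krt16/Sprr1b-high cells (left in each panel) and the summed other spinous cells (right) of each library; points joined by a line come from the same library and black bars are means over the 3 libraries. Sprr1a and Stfa3 are higher in Krt16/Sprr1b-high cells of every library, BC100530 is at 0 in replicate 1, and Txnip, Nfic and Cd82 are lower in every library.

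Genes of the cornified envelope rose in the comparison with other spinous cells and fell in that with granular cells. Of 23 tested late differentiation genes, 13 rose and 0 fell against other spinous cells, with a median log2 fold of 0.90 beside -0.10 over all genes. Filaggrin (Flg), which bundles keratin in the upper layers, had 19.8, 96.5 and 930 CPM in Krt16/Sprr1b-high cells, against 13.9, 19.4 and 43.2 CPM in other spinous cells (3.58 ± 0.84, adjusted p = 0.00763). Its excess was largest in replicate 3, and replicate 1 lay inside the range of other spinous cells. Asprv1, the protease that processes filaggrin, had 407, 741 and 871 CPM against 98.5, 169 and 144 CPM (2.28 ± 0.43, adjusted p = 0.00156). Across the 61 cells of replicate 3, rho between Flg and Asprv1 was 0.73. Involucrin (Ivl), an early scaffold of the envelope, had 198, 231 and 293 CPM against 70.0, 93.2 and 72.3 CPM (1.59 ± 0.22, adjusted p = 0.000131).

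Both comparisons that bear on depth per cell were run for these rises, and they differed. Thinning evened the UMIs per cell but kept the classes set at full depth. It therefore could not undo the choice of deeper cells by the rule. With every cell thinned to 4000 UMIs, 11 of 23 late differentiation genes were higher and 0 lower, with a median of 1.21. Against deep spinous cells, 2 late differentiation genes were higher and 1 lower, with a median of 0.33, and Flg (2.34, adjusted p = 0.151), Asprv1 (1.40, adjusted p = 0.0914) and Ivl (0.72, adjusted p = 0.111) were not called. Without replicate 3, 2 were higher, and Flg (1.85, adjusted p = 0.596) and Asprv1 (2.12, adjusted p = 0.111) were not called, while Ivl was (1.41, adjusted p = 0.00389). Early differentiation genes gave a similar pattern, with 8 of 18 higher than in other spinous cells and 6 after thinning. Against deep spinous cells 1 was higher, and without replicate 3, 2 were. Calls over all genes fell too: 663 of 9324 were higher than in other spinous cells, and 183 of 5213 after thinning. They were 145 of 9332 against deep spinous cells and 111 of 8420 without replicate 3. Krt2, the keratin of the upper spinous layer, had 20838, 22717 and 32302 CPM in Krt16/Sprr1b-high cells, against 16306, 12906 and 18194 CPM in other spinous cells (0.67 ± 0.15, adjusted p = 0.00558), and a log2 fold of 0.32 (adjusted p = 0.282) against deep spinous cells and 0.62 (adjusted p = 0.164) without replicate 3.

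Against granular cells, 3752 of 9324 genes were called (40.2%), 1771 higher (19.0%) and 1981 lower (21.2%) in Krt16/Sprr1b-high cells. Scaling to total UMIs in place of TMM moved the median of all genes from 0.09 to 0.44 and the calls to 2879 higher and 1348 lower, and without replicate 3 the calls were 666 and 1202. Of 23 tested late differentiation genes, 19 were lower than in granular cells and 1 was higher, with a median log2 fold of -3.06. Lor, itself an envelope gene, parts these 2 classes by rule, so lower values of genes that go with Lor were partly set beforehand. This bears on every list count against granular cells given here. The late cornified envelope genes fell most: Lce1l, Lce1i, Lce1e and Lce1h had 0 UMIs and Lce1a1 had 1 UMI in all Krt16/Sprr1b-high cells, against means of 4019, 1862, 1100, 933 and 6562 CPM in granular cells. Flg fell by 3.18 (adjusted p = 0.00279) and Asprv1 by 3.06 (adjusted p = 1.1e-05) on the log2 scale. Flg and Asprv1 averaged between the levels of other spinous and granular cells, whereas the 5 Lce1 genes were at or near 0 in Krt16/Sprr1b-high cells, against means of 0.690 to 4.78 CPM of total UMIs in other spinous cells. A count of 0 allows 11 and 10.2 CPM in replicates 1 and 2, above all these means, and 2.05 CPM in replicate 3. These counts therefore do not firmly place the Lce1 genes below other spinous cells.

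The genes highest over granular cells were channel, junction, membrane and receptor genes and 1 metabolic enzyme. Aqp3, the glycerol and water channel of the lower epidermis, had 1471, 531 and 549 CPM in Krt16/Sprr1b-high cells, against 7.30, 9.16 and 6.95 CPM in granular cells (6.60 ± 0.30, adjusted p = 5.77e-12). It was also above the 366, 185 and 266 CPM of other spinous cells in every library (1.55 ± 0.18, adjusted p = 2.15e-05), and both calls held in every alternative fit run. Without the 1 cell of replicate 1 described above, Aqp3 had 452 CPM of total UMIs in that library and a mean of 502 CPM, against a mean of 272 CPM in other spinous cells. The gap junction gene Gja1 had 59.3, 68.9 and 155 CPM against 0, 3.44 and 2.32 CPM in granular cells (5.63 ± 0.40, adjusted p = 1.12e-09). The tetraspanin Cd81 had 146, 121 and 110 CPM against 3.65, 6.87 and 2.32 CPM (4.87 ± 0.28, adjusted p = 8.68e-11). The threonine dehydrogenase gene Tdh and the prolactin receptor Prlr completed the 5 highest, with 128 and 52 UMIs in Krt16/Sprr1b-high cells and 1 and 2 UMIs in granular cells.

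**Figure D3:**
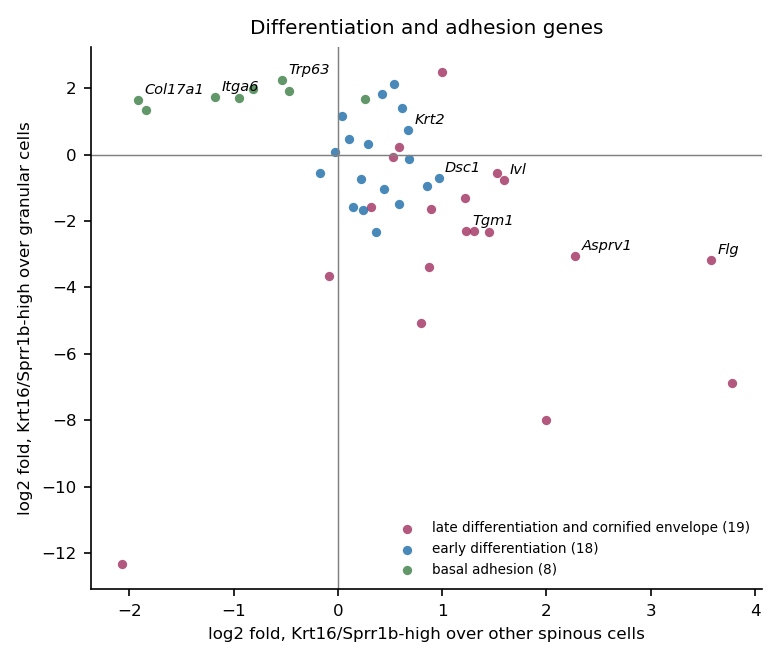
Each point is a tested gene of the late differentiation (red), early differentiation (blue) or basal adhesion list (green) with more than 3 UMIs in each class. The x axis is its log2 fold in Krt16/Sprr1b-high over other spinous cells and the y axis that over granular cells. Most red points lie right of and below 0, Flg at 3.58 and -3.18, and most green points left of and above 0.

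Connexins form gap junctions between neighbouring cells. The connexin gene Gjb6 had 35.6, 10.3 and 63.9 CPM in Krt16/Sprr1b-high cells, against 6.26, 6.39 and 9.58 CPM in other spinous cells (2.36 ± 0.35, adjusted p = 0.000204). Gjb2 had 87.0, 27.6 and 127 CPM against 26.8, 29.0 and 41.0 CPM (1.34 ± 0.22, adjusted p = 0.000455), so replicate 2 did not share its rise. Gja1 rose as well (1.06 ± 0.18, adjusted p = 0.000517). Gjb6 and Gja1 were called against deep spinous cells and Gjb2 was not (0.62, adjusted p = 0.186). Without replicate 3 none of these 3 genes was called, with 1.82 (adjusted p = 0.204) for Gjb6, 0.99 (adjusted p = 0.228) for Gjb2 and 0.63 (adjusted p = 0.339) for Gja1. Desmosome genes gave 6 rises among 10, led by desmocollin 1 (Dsc1, 0.97 ± 0.16, adjusted p = 0.000463). Of these 6, Pkp3 was the 1 called against deep spinous cells, where Dsc1 had 0.26 (adjusted p = 0.475). The tight junction gene Cldn4 rose (1.21 ± 0.28, adjusted p = 0.0075), but not without replicate 1 (0.71, adjusted p = 0.0605) or against deep spinous cells (0.52, adjusted p = 0.379).

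Basal adhesion genes went the other way, with 5 of 13 lower and 0 higher. Col17a1, the collagen of hemidesmosomes, had 11.9, 117 and 21.8 CPM in Krt16/Sprr1b-high cells, against 147, 154 and 145 CPM in other spinous cells (-1.91 ± 0.40, adjusted p = 0.00299). A cell of replicate 2, not marked as a doublet, held 45.6% of its UMIs in the class, and without it replicate 2 had 11.3 CPM of total UMIs. Dystonin (Dst), which links hemidesmosomes to keratin, fell by 1.84 (adjusted p = 0.000127) and the integrin gene Itga6 by 1.18 on the log2 scale (adjusted p = 0.00463). After thinning to 4000 UMIs, 3 of 13 were lower and 0 higher, with a median of -1.48 beside -0.95 unthinned. None of the 5 was called against deep spinous cells, where the log2 folds were -0.51 for Col17a1, -0.49 for Dst and -0.07 for Itga6, nor without replicate 3, where they were -1.17, -1.14 and -1.56.

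Glycolysis and hypoxia genes were raised in replicates 2 and 3 and not uniformly in replicate 1. Of 17 tested glycolysis and hypoxia genes, 10 rose and 0 fell, with a median log2 fold of 0.63, and 8 rose against deep spinous cells. After thinning, 4 of 15 were higher and 0 lower. All 10 were higher in replicates 2 and 3 but 6 in replicate 1, and without replicate 3 a single gene was called. Lactate dehydrogenase (Ldha) had 217, 486 and 508 CPM in Krt16/Sprr1b-high cells, against 251, 201 and 244 CPM in other spinous cells (0.81 ± 0.19, adjusted p = 0.00659, and 0.69 with adjusted p = 0.247 without replicate 3). The phosphofructokinase gene Pfkl had 3.95, 20.7 and 28.1 CPM against 6.40, 5.74 and 7.27 CPM (1.72 ± 0.30, adjusted p = 0.000695, and 1.11 with adjusted p = 0.476 without replicate 3). Epas1, the hypoxia-inducible factor 2 alpha gene, rose 6.45-fold (2.69 ± 0.43, adjusted p = 0.00043, and 2.69 with adjusted p = 0.105 without replicate 3), with 11.9, 34.5 and 33.7 CPM against 3.34, 3.96 and 4.62 CPM.

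Genes of cholesterol and barrier lipid rose over other spinous cells. Of 22 tested genes of cholesterol synthesis and uptake, 15 rose and 0 fell, with a median of 0.70, led by squalene epoxidase (Sqle), with 170, 203 and 210 CPM in Krt16/Sprr1b-high cells, against 87.8, 78.8 and 92.8 CPM in other spinous cells (1.17 ± 0.19, adjusted p = 0.00043). Of 22 tested genes of ceramide and barrier lipid, 12 rose, led by the glucosylceramide synthase Ugcg (1.23 ± 0.18, adjusted p = 0.000164). Relative to granular cells, 4 cholesterol genes were higher and 5 lower, and 3 ceramide and barrier lipid genes were higher and 15 lower. After thinning, 7 of 20 and 5 of 20 were higher, with medians of 0.72 and 0.61. Against deep spinous cells 1 and 3 of these genes were called, with medians of 0.35 and 0.34, and Sqle (0.74, adjusted p = 0.0594) and Ugcg (0.72, adjusted p = 0.0545) were not. Without replicate 3, 4 and 6 were called, and Sqle had 1.19 (adjusted p = 0.0746).

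Kallikreins and their inhibitors split. Of 13 tested genes, 8 rose over other spinous cells, 7 of them kallikreins, the proteases that loosen the outer layers. The 2 WAP-type genes Wfdc21 and Wfdc18 fell. Relative to granular cells, 0 of the 13 were higher and 12 were lower, with a median log2 fold of -2.29. Against deep spinous cells 1 gene of the list was higher and 3 were lower, without replicate 3 the counts were 1 and 0, and after thinning 6 of 10 were higher and 1 lower. Klk9 had 39.5, 10.3 and 26.0 CPM in Krt16/Sprr1b-high cells, against 4.17, 5.50 and 5.05 CPM in other spinous cells (2.14 ± 0.44, adjusted p = 0.00309). Wfdc21 had 43.5, 3.45 and 87.8 CPM against 241, 630 and 220 CPM (-2.87 ± 0.86, adjusted p = 0.0305) and a mean of 9880 CPM in granular cells. Klk9 was not called against deep spinous cells (1.18, adjusted p = 0.165) or without replicate 3 (2.31, adjusted p = 0.208). Wfdc21 was called against deep spinous cells (-3.81, adjusted p = 0.0167) and lost without replicate 2 (-1.69, adjusted p = 0.0998) and without replicate 3 (-4.32, adjusted p = 0.139), and Wfdc18, with 2 UMIs in Krt16/Sprr1b-high cells, was lost without replicate 3 (-1.78, adjusted p = 0.579). The adipokine-like serpin Serpina12 went the same way, with 3.95, 17.2 and 28.8 CPM in Krt16/Sprr1b-high cells, 94.2, 140 and 73.4 CPM in other spinous cells, a mean of 2138 CPM in granular cells and a log2 fold against other spinous cells of -2.32 ± 0.61 (adjusted p = 0.0158, and -3.39 with adjusted p = 0.101 without replicate 3).

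Transcription factors of the epidermis changed both ways, with 9 of 33 higher and 5 lower. The terminal differentiation factor Klf4 was found in all 84 cells, with 1131, 1326 and 1430 CPM in Krt16/Sprr1b-high cells, against 726, 836 and 952 CPM in other spinous cells (0.63 ± 0.13, adjusted p = 0.00293). Prdm1, a repressor active in upper layers, had the highest log2 fold, 2.67 ± 0.70 (adjusted p = 0.0142), from 34 UMIs. Tfap2b, an AP-2 factor, had 23.7, 37.9 and 18.3 CPM against 72.2, 81.8 and 70.2 CPM (-1.69 ± 0.19, adjusted p = 1.38e-05). After thinning, 3 of 29 were higher and 3 lower. Against deep spinous cells 0 of these genes were higher and Tfap2b was the 1 lower (-1.21, adjusted p = 0.00365), with 0.37 for Klf4 and 1.63 for Prdm1. Without replicate 3, Klf4 (0.67, adjusted p = 0.0982) and Prdm1 (1.91, adjusted p = 0.617) were not called and Tfap2b was (-1.29, adjusted p = 0.0363).

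Among the named genes outside the lists, 4 falls were called in each of 19 alternative fits, as was that of Tfap2b above. Txnip, the thioredoxin-binding protein that restrains glucose uptake, had 19.8, 58.6 and 13.3 CPM in Krt16/Sprr1b-high cells, against 89.3, 211 and 83.1 CPM in other spinous cells (-2.26 ± 0.19, adjusted p = 1.01e-06). Nfic, a nuclear factor I gene, had 27.7, 13.8 and 16.9 CPM against 63.7, 56.7 and 71.5 CPM (-1.91 ± 0.19, adjusted p = 4.55e-06). The tetraspanin Cd82 had 31.6, 31.0 and 28.8 CPM against 96.4, 112 and 105 CPM (-1.82 ± 0.18, adjusted p = 4.24e-06). Mesp2, a basic helix-loop-helix factor gene, had 11.9, 3.45 and 6.32 CPM against 40.6, 38.8 and 37.6 CPM (-2.56 ± 0.30, adjusted p = 2.2e-05). In each of these 4 genes every Krt16/Sprr1b-high value lay below every other spinous value. The naming rule had already asked for large folds in 1 direction in all libraries, and such separation was not counted over all genes. Cd82 was lower than in granular cells too (-3.12 ± 0.18, adjusted p = 5.47e-11), whereas Nfic was higher than in granular cells (1.16 ± 0.33, adjusted p = 0.0122).

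The remaining falls of the naming rule were Cd59a, Sectm1a, Pdlim4, Gstt3, Hspa2, Gatsl3 and Slc7a6, with log2 folds between -2.82 and -1.87 and adjusted p up to 0.00154. Their means were 1.41 to 12.9 CPM in Krt16/Sprr1b-high cells, against 20.8 to 34.2 CPM in other spinous cells, and none was called without replicate 3, with adjusted p from 0.0695 to 0.36. The remaining rises were the tropomyosin Tpm2 (2.95 ± 0.28, adjusted p = 2.87e-06), the small GTPase Rab31 (2.22 ± 0.43, adjusted p = 0.00178) and the long noncoding RNA 1200007C13Rik (2.27 ± 0.54, adjusted p = 0.00774). Tpm2 and Rab31 were called in every alternative fit that tested them. The noncoding RNA was lost without replicate 1 (1.43, adjusted p = 0.0512) and without replicate 3 (2.97, adjusted p = 0.0982). Of 62 called genes picked by the naming rule in this comparison, 14 were called in every alternative fit, 28 were lost against deep spinous cells and 36 without replicate 3. All 10 named against granular cells were called in each of 9 alternative fits.

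**Figure D4:**
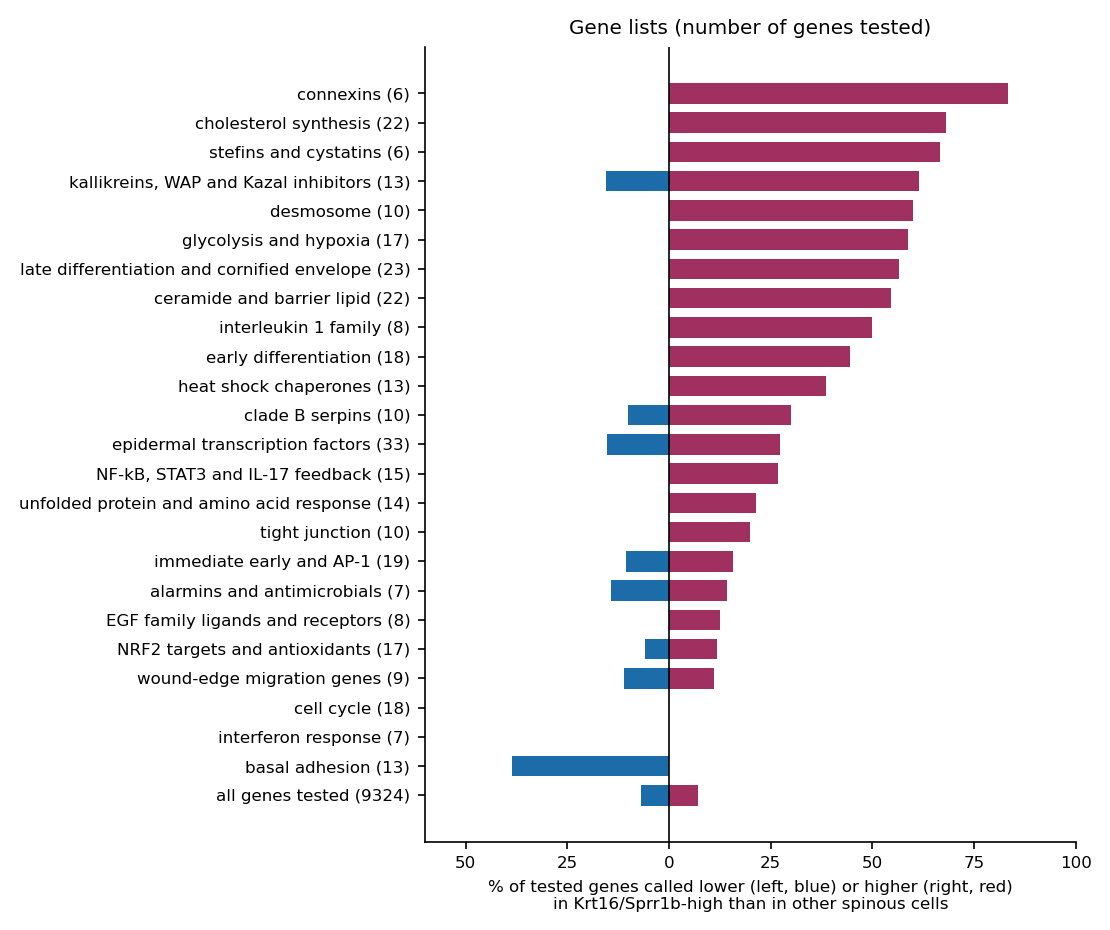
For each gene list with at least 5 genes tested (number in brackets), bars give the percentage of tested genes called higher (right) and lower (left) in Krt16/Sprr1b-high than in other spinous cells. The bottom bar is the background over all 9324 genes, 7.11% higher and 6.81% lower; connexins, cholesterol synthesis and stefins stand furthest right and basal adhesion furthest left.

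Levels of some genes also graded along the threshold. In replicate 3, where the numbers allow it, spinous cells were binned by their Krt16 and Sprr1b UMIs, as a description with CPM of total UMIs. Stfa1 stood at 6.63 CPM in 669 cells with 0 UMIs of the pair, 12.4 CPM in 22 cells with 5 to 9, 46.7 CPM in 20 cells with 10 to 19, 54.4 CPM in 23 cells with 20 to 39 and 110 CPM in 18 cells with 40 or more. BC100530 went from 11.4 CPM through 99.2, 301 and 408 to 646 CPM in the same bins, with values already above those of cells at 0 below the threshold. Flg stood at 24.5, 382, 218, 870 and 1478 CPM and Nfic at 76.6, 42.2, 38.9, 10.2 and 6.09 CPM. Other genes did not climb from bin to bin: Stfa3 stood at 3.22, 29.8, 80.4, 56.1 and 65.0 CPM and Defb6 at 29.2, 394, 208, 406 and 270 CPM. Median depth graded too, from 14590 UMIs in cells at 0 to 26468.5 UMIs in cells with 40 or more. Krt6b was listed at 0 in the bins below 20 UMIs and at 20.4 and 154 CPM above.

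**Figure D5:**
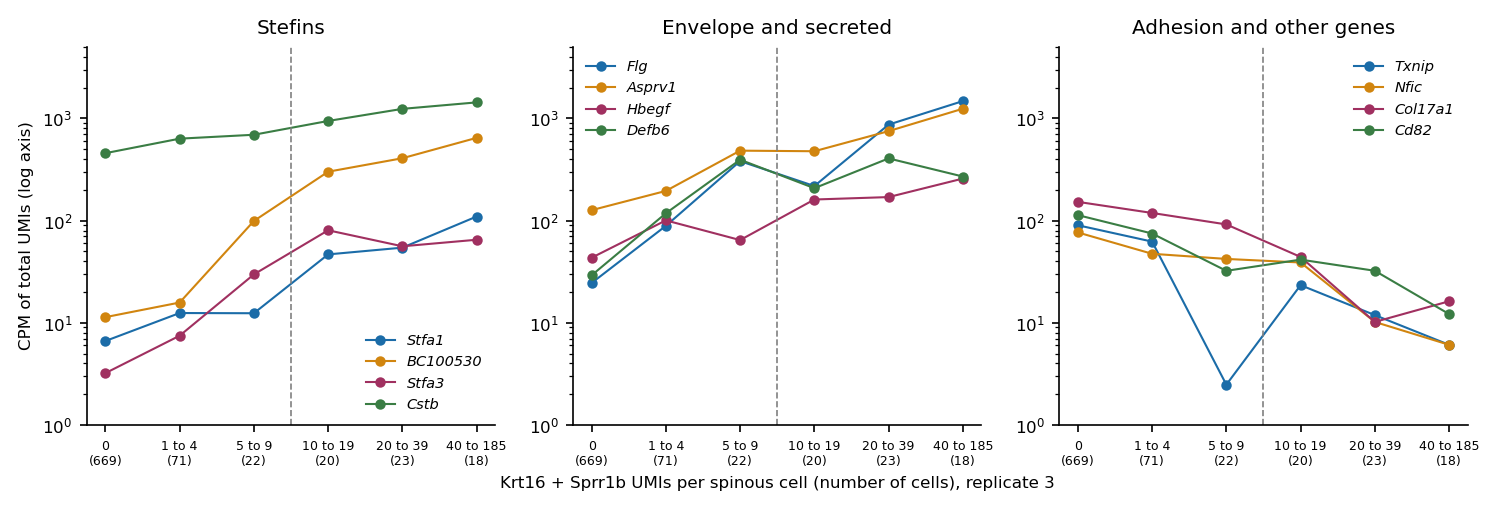
CPM of total UMIs (y, logarithmic) of 12 genes in spinous cells of replicate 3, binned by their Krt16 plus Sprr1b UMIs (x, cell numbers in brackets); the dashed line marks the threshold of 10 UMIs. Stfa1, BC100530 and Cstb are highest in the bin of 40 or more UMIs, at 110, 646 and 1435 CPM, and Txnip, Nfic, Cd82 and Col17a1 are lower above the line than in cells at 0.

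Melanocyte markers had 0 UMIs for 4 of 4 genes, and fibroblast markers had 1 UMI, with 3 of 4 genes at 0. Langerhans markers summed to 3.67 to 15.0 CPM over libraries in Krt16/Sprr1b-high cells, against 20.3 to 27.2 CPM in other spinous cells, with langerin (Cd207) at 0. Neutrophil markers summed to 17.0 to 50.8 CPM against 7.87 to 12.4 CPM, with 5 of 7 genes at 0 in both classes (Csf3r, Retnlg, Ly6g, Mpo and Ngp). The excess was Cxcr2, which had 35.6, 48.2 and 15.5 CPM against 5.84, 8.09 and 9.06 CPM (1.59 ± 0.39, adjusted p = 0.00998, but 1.21 with adjusted p = 0.102 without replicate 2 and 0.89 with adjusted p = 0.247 against deep spinous cells). Upper follicle markers summed to 1207 to 1447 CPM against 894 to 982 CPM, mostly Cst6 in both classes. Of this list, 1 of 7 tested genes was called higher, Defb6, with 202, 193 and 318 CPM against 21.3, 11.9 and 50.5 CPM, while Krt79 had 1 UMI and Krt75, Plb1 and Fst were at 0. Bulge markers summed to 0 to 183 CPM against 16.4 to 53.2 CPM, and 82.2% of the 45 Krt15 UMIs were in the cell of replicate 2 that held most Col17a1. Sebocyte markers summed to 403 to 460 CPM against 320 to 352 CPM. Of 5 tested, the lipid synthesis genes Fasn (0.79 ± 0.14, adjusted p = 0.000967) and Elovl6 (0.84 ± 0.15, adjusted p = 0.000765) were called higher. Without replicate 3, Elovl6 was not called (0.85, adjusted p = 0.0695). Neither gene was called against deep spinous cells, although 1 of 5 tested genes of the list was higher there and 0 lower. Pparg and Cidea were at 0. The part of follicle or sebaceous cells in the results was not tested. T cell markers had 3 UMIs in all, with 4 of 6 genes at 0.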

How the data were processed

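Per the labels' protocols and the submitters' processing notes, reads of the 5' libraries were processed with Cell Ranger 3.1.0 on build mm10. The authors deposited raw UMI counts for 31053 genes in called cells, and multimapping rules are not given in the sources used here. The members, lists, thresholds and naming rule were chosen with earlier results of these data known. Cells failing the filters (738 barcodes) were left out, of which 1 met the rest of the rule. Doublets were marked with Scrublet (scanpy 1.11.5) and kept. Sums were taken for each class within each library, given 10 cells or more, and fitted in edgeR 4.0.16 (R 4.3.3) with TMM, its low-count filter, a quasi-likelihood test, library as a block and Benjamini-Hochberg adjustment; the rule genes, Stfa1 and mitochondrial genes were not tested. The 15 sums left 8 residual degrees of freedom. Sums rest on 10, 13 and 61 Krt16/Sprr1b-high cells and are treated as equally variable. On simulated data for the comparison with other spinous cells, run on 8022 genes, 92% of 2-fold and 99% of 4-fold changes were recovered. Of the calls, 4.02% were false. The simulation gave all 5 classes the means of other spinous cells, with no library effect, and changed only genes above 20 CPM. Each gene had the same spread in all sums, whatever their cell number. It checks the procedure and gives no rate of recovery or false calls for the real data. The block pairs sums of 1 library: its deviations correlated between both spinous classes with r of 0.304, 0.139 and 0.226 across 5038 genes, which are not independent. Named genes were the 15 largest rises and falls against other spinous cells (5 against granular cells) with an adjusted p under 0.05, a mean of at least 20 CPM in the higher class and 1 direction in all libraries, the called list members with the largest rise and fall, and 8 genes of the stress programme; others were named after their values were seen. Coordinates are from RefSeq on GRCm38.p6, and gene clusters from GENCODE M21. Some results on connexin genes are not reported here.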

Additional observations from a re-analysis of the deposited data

How the results depend on the processing

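Counts of called genes depended most on depth and on replicate 3. Against other spinous cells, thinning cells to 4000 UMIs gave 183 higher and 140 lower genes among 5213 tested, and deep spinous cells gave 145 and 137, with 131 and 107 of the original calls. Leaving out 1 library gave 111 to 608 higher and 42 to 417 lower genes. Lower genes numbered 408 with DESeq2 1.42.0, 384 with both spinous classes alone, 397 with limma voom 3.58.1 weighted by class, 419 with Lor under 0.2%, 379 at a threshold of 5 UMIs and 355 with the pair at 0.1% of UMIs, the voom and share fits being chosen after seeing the data, as was a fit at 20 UMIs. Without the replicate block, 557 genes were higher and 574 lower. Against granular cells the counts were 623 and 809 with thinning, 666 to 1444 and 1202 to 1966 without 1 library, and 2879 higher with scaling to total UMIs. Other alternatives stayed within 1.5 times. Shares in replicates 1 to 3 were 5.56%, 2.61% and 10.1% at 5 UMIs. They were 1.39%, 0.871% and 4.98% at 20 UMIs, and 1.67%, 0.763% and 4.98% at 0.1% of UMIs. After thinning, with the threshold lowered to 4 UMIs, they were 2.01%, 0.962% and 5.44%. S100a9, not called, had a log2 fold of -0.67 in DESeq2 and 0.28 in edgeR. The causes were not tested. With 23 Krt16/Sprr1b-high cells outside replicate 3, lost calls there do not show absence of a difference.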

Other observations

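Between Krt16/Sprr1b-high and other spinous cells, programmes often linked to activated keratinocytes ranged from no calls to shares above that of all genes. Of 18 tested cell cycle genes and of 7 tested interferon response genes, 0 were called in edgeR and 0 in DESeq2, while 1 cell cycle gene and 0 interferon response genes had an unadjusted p under 0.05 in edgeR. Of 3 tested metallothioneins Mt2 was lower (-1.62 ± 0.32, adjusted p = 0.00193), with -1.34 (adjusted p = 0.164) without replicate 3 and -0.49 (adjusted p = 0.507) against deep spinous cells. NRF2 targets and antioxidants gave 2 higher and 1 lower gene among 17 (11.8% and 5.88%, beside 7.11% and 6.81% of all genes tested). Gsta4 had 59.3, 0 and 14.1 CPM in Krt16/Sprr1b-high cells, against 3.62, 1.46 and 1.71 CPM in other spinous cells (2.90 ± 0.55, adjusted p = 0.00163), while Blvrb, which makes bilirubin, was lower (-0.72 ± 0.18, adjusted p = 0.00998, and -0.24 with adjusted p = 0.663 without replicate 3). Genes of the unfolded protein response gave 3 rises among 14 (21.4%, beside 7.11% of all genes tested) and 0 falls. Among the rises was the chaperone Hspa5 (0.87 ± 0.15, adjusted p = 0.000816, and 0.71 with adjusted p = 0.0676 without replicate 3). Of the 14 genes, 1 was called higher against deep spinous cells and 1 without replicate 3.

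Some transcripts in the class came mostly from single cells or were uneven between libraries. Of 669 UMIs of the suprabasal keratin Krt77, 539 were in 1 cell of replicate 3, which is 80.6% of them. The endothelial marker Pecam1 had 20 UMIs in 3 cells of replicate 3, with 90.0% in 1 cell, and Cdh5, the other endothelial marker, was at 0. Ndufa4l2, a hypoxia-responsive subunit gene of the respiratory chain, was found in 0 of 10, 9 of 13 and 23 of 61 Krt16/Sprr1b-high cells of replicates 1 to 3. These genes were named after their values were seen, and no test result is given for them.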
